A study of Mus musculus with 9 samples.

Results

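The genes described here encode the chains of the collagens that fill the space between cells of the liver and an enzyme that crosslinks matrix fibres. They are a list of 10 genes taken by symbol, Col1a1, Col1a2, Col3a1, Col5a1, Col5a2, Col6a1, Col6a2, Col6a3, Col14a1 and Loxl1, and all 10 were found among the 21470 genes of the expression table. Liver RNA was sequenced in 9 mouse libraries in 3 groups of 3. The BDL+LIG group had bile duct ligation (BDL) and was given ligustilide (LIG), the BDL group had the ligation alone, and the sham group had neither the ligation nor LIG by its label. The design text gives 10 mg/kg as the LIG dose, while the sample titles carry the number 20, so the dose is not settled here. The sources used here do not give strain, sex, age, days after surgery or route of dosing. Nor do they state that every library is from its own animal, so the p-values below cover library-to-library spread that could be technical in part.

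Bile duct ligation blocks the outflow of bile, and in rodents it is a widely used model of cholestatic injury with scarring around the bile ducts. Scar matrix in liver is laid down mainly by activated stellate cells and portal fibroblasts. Types I and III form the bulk of the fibrils, type V takes part in starting and sizing them, type VI forms beaded filaments around cells, and type XIV sits on the fibril surface. Procollagen chains are hydroxylated and folded in the endoplasmic reticulum, trimmed after secretion, and then joined by lysyl oxidases such as LOXL1, which is best known for acting on elastin. Ligustilide is a phthalide found in the roots of Angelica and Ligusticum plants.

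The promoters of Col1a2, Col3a1 and Col6a3, 1 chain each of types I, III and VI, are printed here because types I and III made up most of the collagen transcripts and Col6a3 was called both with the ligation and with LIG. RefSeq windows of 300 bases on build GRCm38.p6, from 250 bases before to 50 bases after each start, were matched for 6 of the 10 genes by symbol (Col1a2, Col3a1, Col5a1, Col6a1, Col6a2 and Col6a3). The windows shown lie at chr6:4505368-4505667 on the plus strand for Col1a2, at chr1:45311288-45311587 on the plus strand for Col3a1 and at chr1:90843922-90844221 on the minus strand for Col6a3. Capitals mark every match to 4 short motifs. These were the CCAAT box, the GC box with the letters GGGCGG, the TATA box with the letters TATAAA, and the SMAD box with the letters CAGAC. Both strands were searched, so a match on the opposite strand shows the reverse complement, and no marked match overlaps another.
Col1a2: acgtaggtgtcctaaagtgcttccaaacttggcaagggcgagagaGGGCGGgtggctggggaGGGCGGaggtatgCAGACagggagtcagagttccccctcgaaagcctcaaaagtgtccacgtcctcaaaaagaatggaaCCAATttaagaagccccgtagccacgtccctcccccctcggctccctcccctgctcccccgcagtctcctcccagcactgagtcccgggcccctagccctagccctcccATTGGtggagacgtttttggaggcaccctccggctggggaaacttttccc
Col3a1: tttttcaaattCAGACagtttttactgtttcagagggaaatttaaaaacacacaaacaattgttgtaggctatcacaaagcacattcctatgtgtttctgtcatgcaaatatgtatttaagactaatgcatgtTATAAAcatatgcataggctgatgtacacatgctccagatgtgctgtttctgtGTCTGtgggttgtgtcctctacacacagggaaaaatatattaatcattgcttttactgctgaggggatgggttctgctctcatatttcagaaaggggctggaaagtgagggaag
Col6a3: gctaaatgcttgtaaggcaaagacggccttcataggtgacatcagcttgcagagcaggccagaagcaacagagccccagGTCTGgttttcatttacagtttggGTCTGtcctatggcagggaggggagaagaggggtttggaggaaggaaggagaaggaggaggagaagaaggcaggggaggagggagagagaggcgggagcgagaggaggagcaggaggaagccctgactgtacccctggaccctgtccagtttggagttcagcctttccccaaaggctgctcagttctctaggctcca
The Col1a2 window held 2 CCAAT matches, 2 GC boxes and 1 SMAD box, and 61% of its bases were G or C. One CCAAT match began 109 bases before the start, and the GC boxes began 205 and 188 bases before it. The Col3a1 window was poor in G and C (37.7%) and held 1 TATAAA match and 2 SMAD boxes, with no CCAAT match and no GC box. The Col6a3 window held 2 SMAD boxes and none of the other motifs. Among all 32851 windows of this length, 37.4% held a CCAAT match, 35.7% a GC box, 13.6% a TATAAA match and 49.6% a SMAD box, so each of these motifs is common. A match describes the letters and shows no binding.

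Values are FPKM, which scale fragments to transcript length and library depth, so levels can be compared between genes. Whole fragments recovered from these values summed to between 34815965 and 40780517 per library. Every pair of libraries in a group differed beyond counting error (mean chi-square over genes between 16.3 and 250.4). For the collagens, 2 libraries stood apart. BDL+LIG library 2 had the highest level of all 9 libraries for 10 of the 10 genes, and sham library 1 had the highest level of the sham libraries for 9 of the 10. Only Col3a1 reached 1 FPKM in all 3 sham libraries, and 5 genes (Col5a1, Col5a2, Col6a2, Col6a3 and Loxl1) stayed under it in every sham library. The test kept a gene where 3 or more libraries reached 1 FPKM, so those 5 entered it through the ligated groups alone.

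The summed level of the 10 genes was 59.1, 128.6 and 82.5 FPKM in the BDL+LIG libraries, 45.4, 56.7 and 62.8 FPKM in the BDL libraries and 17.1, 4.38 and 10.1 FPKM in the sham libraries. Every ligated library lay above every sham library, and the ranges of the BDL+LIG and BDL libraries overlapped. By fragments, the 10 genes gave 29450 in BDL+LIG library 2 and 880 in sham library 2, the highest and lowest totals. A higher level in whole liver RNA can come from more cells that make collagen or from more RNA per cell, and these cannot be told apart here.

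**Figure D1:**
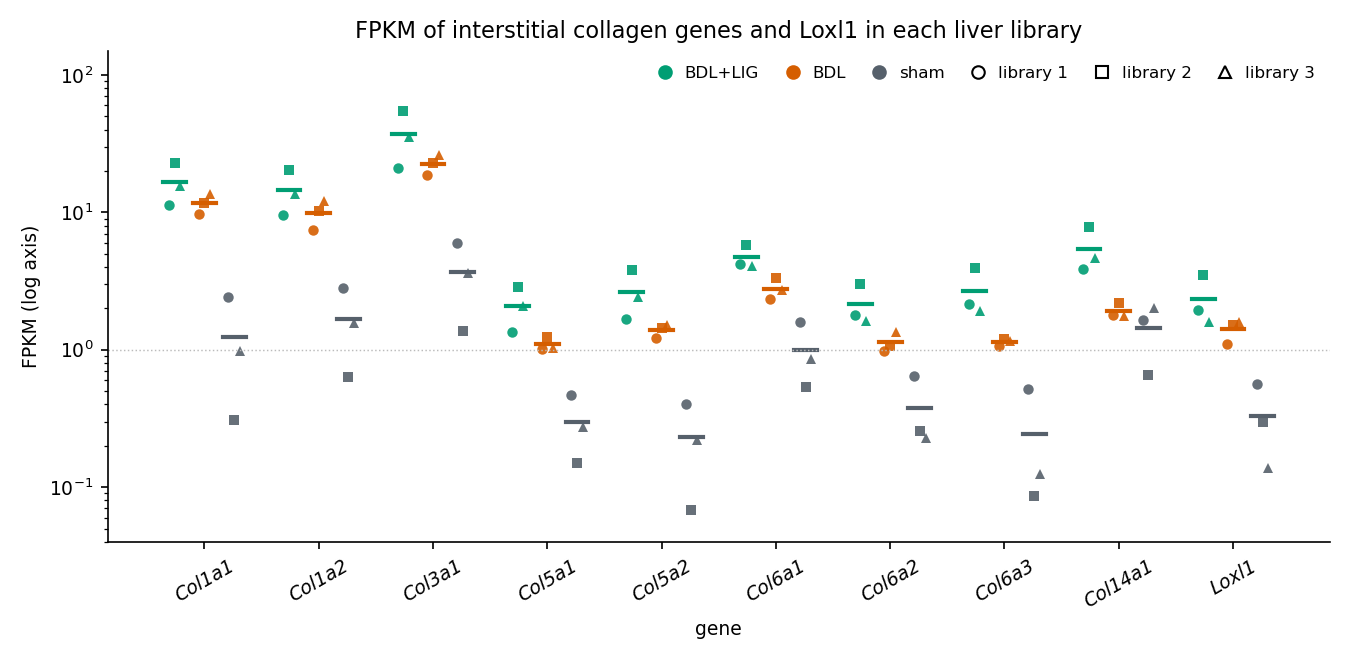
FPKM on a log axis of the 10 genes in each library, with BDL+LIG, BDL and sham from left to right for each gene, 1 symbol per library and a horizontal line at the group mean. Col3a1 has the highest mean in every group (37.0, 22.6 and 3.67 FPKM), and the square of BDL+LIG library 2 tops each gene.

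Type I collagen is a heterotrimer of chains from Col1a1 and Col1a2 and the main fibre of scar tissue. Col1a1 was at 9.68, 11.6 and 13.5 FPKM in the BDL libraries, against 2.42, 0.310 and 0.986 FPKM in the sham libraries. Col1a2 was at 7.44, 10.2 and 12.0 FPKM in the BDL libraries, against 2.82, 0.638 and 1.57 FPKM in the sham libraries. For both chains every BDL library was above every sham library. On the scale of log2(FPKM + 1), used for all changes below, Col1a1 rose by 2.59 ± 0.33 (SE, n = 3 each; limma, Benjamini-Hochberg adjusted p = 0.000277). Col1a2 rose by 2.09 ± 0.32 (limma adjusted p = 0.00104). The ratio of mean FPKM was 9.37 for Col1a1 and 5.90 for Col1a2, and without sham library 1 it was 17.9 and 8.94.

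Type III collagen, a homotrimer of the Col3a1 chain, forms thin fibrils together with type I and was the most abundant of the 10 transcripts in each group. Col3a1 was at 18.8, 22.9 and 26.2 FPKM in the BDL libraries, against 5.99, 1.38 and 3.65 FPKM in the sham libraries. The lowest BDL library was thus well above the highest sham library. The change was 2.46 ± 0.39 (limma adjusted p = 0.00117), and the ratio of means was 6.17, or 9.02 without sham library 1.

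Type V collagen, made from chains of Col5a1 and Col5a2, is buried in type I fibrils and is needed for their assembly in mouse. Col5a1 was at 1.02, 1.24 and 1.03 FPKM in the BDL libraries, against 0.469, 0.149 and 0.273 FPKM in the sham libraries. Col5a2 was at 1.22, 1.44 and 1.51 FPKM in the BDL libraries, against 0.404, 0.068 and 0.221 FPKM in the sham libraries. Neither chain overlapped between the groups, though the lowest sham value of Col5a2 rests on 16 fragments. Col5a1 rose by 0.70 ± 0.18 (limma adjusted p = 0.0156) and Col5a2 by 0.96 ± 0.20 (limma adjusted p = 0.00497). As ratios of means these were 3.69 and 6.01, and 5.20 and 9.60 without sham library 1. The log2 values are smaller because adding 1 FPKM shrinks the change of low genes.

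Type VI collagen is a heterotrimer whose usual chains come from Col6a1, Col6a2 and Col6a3, and it links cells to the fibrillar matrix. Col6a1 was at 2.32, 3.31 and 2.71 FPKM in the BDL libraries, against 1.599, 0.540 and 0.850 FPKM in the sham libraries. Col6a2 was at 0.982, 1.07 and 1.35 FPKM in the BDL libraries, against 0.641, 0.258 and 0.229 FPKM in the sham libraries. Col6a3 was at 1.07, 1.19 and 1.16 FPKM in the BDL libraries, against 0.522, 0.086 and 0.124 FPKM in the sham libraries. All 3 chains were higher in each BDL library than in any sham library. The changes were 0.95 ± 0.21 for Col6a1 (limma adjusted p = 0.00648), 0.64 ± 0.18 for Col6a2 (limma adjusted p = 0.0246) and 0.80 ± 0.21 for Col6a3 (limma adjusted p = 0.0154). The ratios of means were 2.79, 3.01 and 4.68, and without sham library 1 they were 4.01, 4.65 and 10.9. Leaving out 1 library ended 3 of these calls. The largest limma adjusted p was 0.0647 for Col5a1 (without BDL library 2), 0.0988 for Col6a2 (without BDL library 3) and 0.0587 for Col6a3 (without sham library 2).

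Type XIV collagen, from Col14a1, decorates mature fibrils and did not pass the test between BDL and sham livers. Its transcript was at 1.80, 2.20 and 1.75 FPKM in the BDL libraries, against 1.64, 0.659 and 2.03 FPKM in the sham libraries. The groups overlapped, since sham library 3 was above 2 of the BDL libraries. The change was 0.30 ± 0.26 (limma adjusted p = 0.42), with a ratio of means of 1.33, or 1.43 without sham library 1.

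Loxl1, the crosslinking enzyme of the set, was at 1.11, 1.52 and 1.58 FPKM in the BDL libraries, against 0.561, 0.296 and 0.137 FPKM in the sham libraries. No BDL library overlapped the sham libraries. The change was 0.86 ± 0.21 (limma adjusted p = 0.0114), and the ratio of means was 4.24, or 6.48 without sham library 1. The lowest sham value rests on 16 fragments.

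In all, 9 of the 10 genes rose in BDL against sham livers, where 22.9% of the 10142 genes tested were called higher. The 10 genes were chosen with earlier results of these data known, and 5 entered the test through the ligated groups alone. The shares set beside all genes, here and below, are therefore descriptive. Libraries did not overlap, with BDL higher, for 9 of the 10 genes and for 33.7% of all genes tested. Calls in the lower direction made up 6.76% of all genes, and none of the 10 was among them. The median change of the 10 genes was 0.90, beside 0.16 over all genes tested. With no filter on low values, which opened the test to genes listed at or near 0, 6 of the 10 were called, beside 13% of 21470 genes. Col5a1, Col6a2, Col6a3 and Col14a1 were those not called.

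In BDL+LIG against BDL livers, Col14a1 and Col6a3 rose, and none of the 10 genes was among the 1.79% of all genes called lower. Col14a1 was at 3.90, 7.81 and 4.66 FPKM in the BDL+LIG libraries, against 1.80, 2.20 and 1.75 FPKM in the BDL libraries. Every BDL+LIG library exceeded every BDL library. The change was 1.10 ± 0.26 (SE, n = 3 each; limma adjusted p = 0.0268), and the ratio of means was 2.85, or 2.24 without BDL+LIG library 2. Its change in BDL against sham livers stood at 0.30, and both comparisons use the same BDL libraries.

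Col6a3 was at 2.17, 3.97 and 1.90 FPKM in the BDL+LIG libraries, against 1.07, 1.19 and 1.16 FPKM in the BDL libraries. Its libraries did not overlap either. The change was 0.74 ± 0.21 (limma adjusted p = 0.046), and the ratio of means was 2.35, or 1.78 without BDL+LIG library 2. Neither call held without BDL+LIG library 2, where the adjusted p was 0.0809 for Col14a1 and 0.115 for Col6a3, nor without BDL+LIG library 3 or any 1 of the BDL libraries. The call of Col6a3 also ended without BDL+LIG library 1 or sham library 2 (limma adjusted p = 0.0655 and 0.0569). When both BDL+LIG library 2 and sham library 1, a pair chosen after seeing the data, were left out, limma adjusted p was 0.0289 for Col14a1 and 0.0131 for Col6a3. The changes were then smaller, at 0.86 and 0.50. Genes called rose to 2595 of 10142, from 1194 with all libraries, and 3 of the 10 genes were among them.

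The other type VI chains and the type V chains did not pass the test, although the libraries did not overlap. Col6a1 was at 4.21, 5.81 and 4.10 FPKM in the BDL+LIG libraries, against 2.32, 3.31 and 2.71 FPKM in the BDL libraries (change 0.59 ± 0.21, limma adjusted p = 0.0825). Col6a2 was at 1.78, 3.02 and 1.63 FPKM in the BDL+LIG libraries, against 0.982, 1.07 and 1.35 FPKM in the BDL libraries (change 0.54 ± 0.18, limma adjusted p = 0.0784). For both, the BDL+LIG libraries were all above the BDL libraries. Col5a1 was at 1.34, 2.88 and 2.07 FPKM in the BDL+LIG libraries, against 1.02, 1.24 and 1.03 FPKM in the BDL libraries (change 0.53 ± 0.18, limma adjusted p = 0.0754). Col5a2 was at 1.69, 3.78 and 2.42 FPKM in the BDL+LIG libraries, against 1.22, 1.44 and 1.51 FPKM in the BDL libraries (change 0.57 ± 0.20, limma adjusted p = 0.0841). Here too no library overlapped. Loxl1 was at 1.96, 3.53 and 1.59 FPKM in the BDL+LIG libraries, against 1.11, 1.52 and 1.58 FPKM in the BDL libraries (change 0.45 ± 0.21, limma adjusted p = 0.171). The lowest BDL+LIG value of Loxl1 was only marginally above the highest BDL value. Without BDL+LIG library 2 all 5 genes lay further from the threshold. The changes were then 0.45 for Col6a1, 0.35 for Col6a2, 0.36 for Col5a1, 0.35 for Col5a2 and 0.21 for Loxl1 (limma adjusted p = 0.234, 0.218, 0.214, 0.23 and 0.468). The ratios of means were 1.69, 1.89, 1.91, 1.89 and 1.68 with that library, and 1.49, 1.51, 1.56, 1.48 and 1.26 without it.

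The fibril-forming chains of types I and III overlapped between the ligated groups. Col1a1 was at 11.3, 22.8 and 15.4 FPKM in the BDL+LIG libraries, against 9.68, 11.6 and 13.5 FPKM in the BDL libraries (change 0.43 ± 0.33, limma adjusted p = 0.383). Col1a2 was at 9.60, 20.4 and 13.5 FPKM in the BDL+LIG libraries, against 7.44, 10.2 and 12.0 FPKM in the BDL libraries (change 0.47 ± 0.32, limma adjusted p = 0.336). Col3a1 was at 21.1, 54.6 and 35.2 FPKM in the BDL+LIG libraries, against 18.8, 22.9 and 26.2 FPKM in the BDL libraries (change 0.60 ± 0.39, limma adjusted p = 0.315). In each case BDL+LIG library 1 lay within the range of the BDL libraries. The ratios of means were 1.42, 1.47 and 1.63, and without BDL+LIG library 2 they were 1.15, 1.17 and 1.24.

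Of the 10 genes, 2 were called higher with LIG, where 9.98% of all genes tested were called higher. Libraries did not overlap, with BDL+LIG higher, for 7 of the 10 genes and for 40.7% of all genes tested. The median change was 0.55 over the 10 genes and 0.18 over all genes tested. With no filter on low values limma called 0 of the 10, beside 2.9% of 21470 genes; with the filter, 6 of the 10 had an unadjusted p under 0.05, beside 31.8% of all genes.

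**Figure D2:**
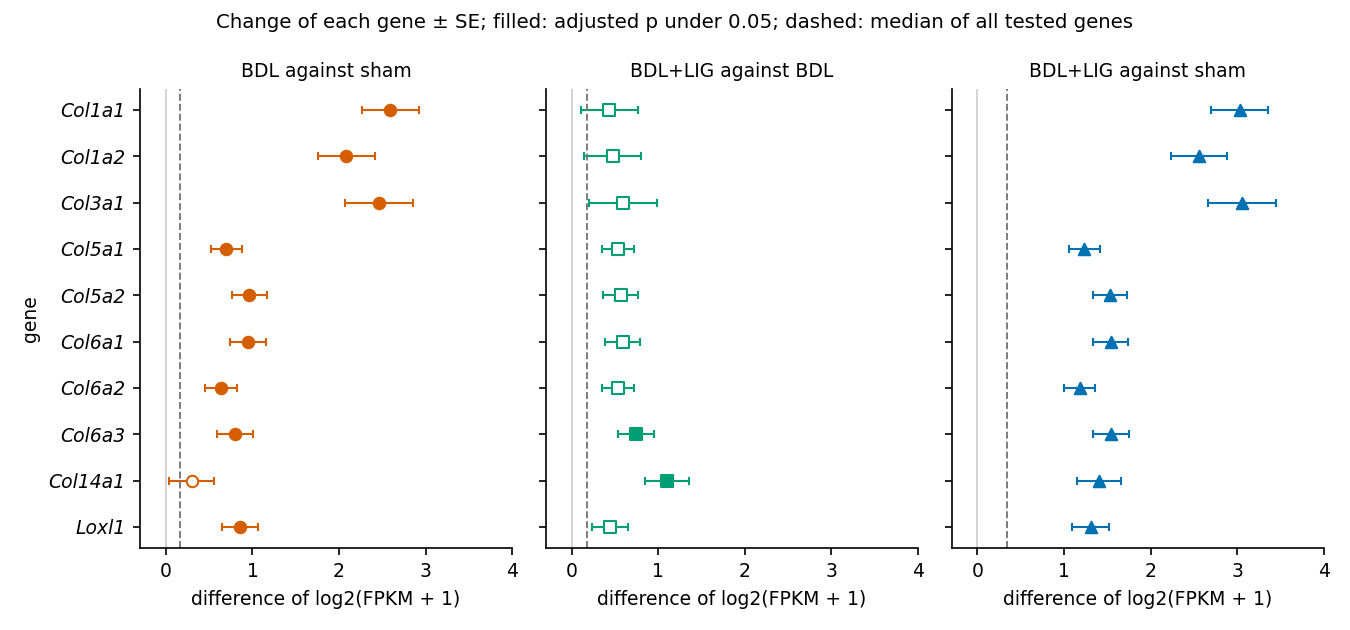
Difference of log2(FPKM + 1) with its SE for the 10 genes in BDL against sham, BDL+LIG against BDL and BDL+LIG against sham, with filled symbols where the adjusted p was under 0.05 and a dashed line at the median of all genes tested (0.16, 0.18 and 0.34). Col14a1 is the open symbol of the first panel and the rightmost filled one of the second.

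In BDL+LIG against sham livers, all 10 genes rose, where 43.7% of all genes tested were called higher. Their libraries did not overlap, beside 45.7% of all genes. The changes ran between 1.18 for Col6a2 and 3.06 for Col3a1, with a median of 1.53 beside 0.34 over all genes tested. Col14a1, which the ligation alone did not move past the threshold, rose by 1.40 ± 0.26 (limma adjusted p = 0.00126). This comparison shares its libraries with the other 2 and is no separate evidence for either.

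The make-up of the set was compared library by library. Types I and III together dominated each library. Type I made up 35.4, 33.6 and 35.1% of the summed FPKM of the set in the BDL+LIG libraries, 37.7, 38.5 and 40.6% in the BDL libraries and 30.7, 21.6 and 25.4% in the sham libraries. Type XIV made up 6.59, 6.07 and 5.65% in the BDL+LIG libraries, 3.96, 3.87 and 2.78% in the BDL libraries and 9.61, 15.0 and 20.1% in the sham libraries. The type XIV share thus separated the 3 groups without overlap, lowest with ligation alone and highest in sham livers. The type I share also separated them, highest with ligation alone and lowest in sham livers. Shares depend on each other. The mean level of Col14a1 itself was not lower in BDL than in sham livers (1.91 and 1.44 FPKM). Type V kept between 4.05 and 5.45% in all 9 libraries.

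**Figure D3:**
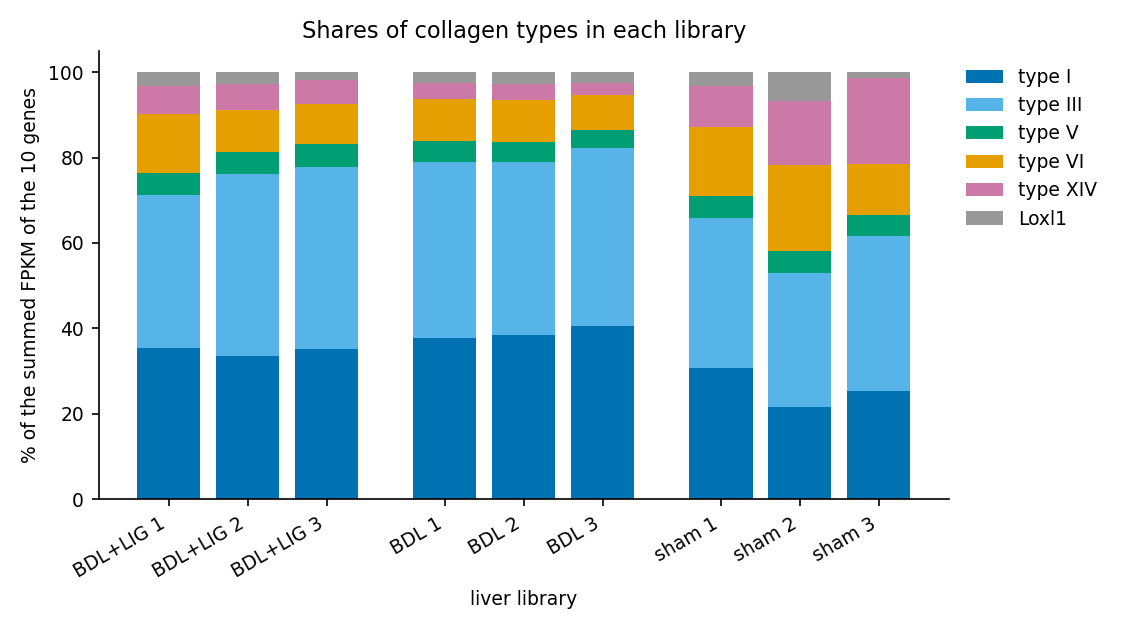
Stacked bars of the share of each collagen type and of Loxl1 in the summed FPKM of the 10 genes, 1 bar per library, with BDL+LIG, BDL and sham from left to right. The type XIV band is 2.78 to 3.96% in BDL libraries and 9.61 to 20.1% in sham libraries.

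By mean level, Col3a1, Col1a1 and Col1a2 led in both ligated groups. In BDL+LIG livers Col14a1 was the fourth highest at 5.45 ± 2.07 FPKM (SD, n = 3), next to Col6a1 at 4.71 ± 0.957 FPKM, and these do not differ beyond their spread. In BDL livers Col6a1 was the fourth highest at 2.78 ± 0.498 FPKM, ahead of Col14a1 at 1.91 ± 0.246 FPKM. In sham livers Col14a1 was the third highest at 1.44 ± 0.704 FPKM, between Col1a2 at 1.68 ± 1.09 FPKM and Col1a1 at 1.24 ± 1.08 FPKM, all within their spread. The 5 lowest sham means were those of Col6a2, Loxl1, Col5a1, Col6a3 and Col5a2, at 0.376 to 0.231 FPKM, and their order cannot be told from their spread.

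Ratios of transcripts within a library do not depend on scaling between libraries. Type I trimers hold more chains from Col1a1 than from Col1a2. The ratio of Col1a1 to Col1a2 FPKM was 1.18, 1.12 and 1.14 in the BDL+LIG libraries, 1.30, 1.14 and 1.12 in the BDL libraries and 0.858, 0.485 and 0.626 in the sham libraries. It was above 1 in every ligated library and below 1 in every sham library. The BDL minus sham difference of mean log2 ratio was 0.89 (exact two-sided permutation p = 0.1, the smallest that 3 against 3 allows; 0.15 adjusted over the 18 ratio comparisons made). Between BDL+LIG and BDL the difference was -0.05 (exact permutation p = 0.7).

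The ratio of Col3a1 to Col1a1 was 1.86, 2.40 and 2.28 in the BDL+LIG libraries, 1.94, 1.97 and 1.94 in the BDL libraries and 2.48, 4.44 and 3.699 in the sham libraries. Type III transcripts were thus in larger excess in each sham library than in any ligated one (BDL minus sham -0.82, exact permutation p = 0.1). The ratio of Col5a2 to Col5a1 was 1.26, 1.32 and 1.17 in the BDL+LIG libraries, 1.196, 1.16 and 1.46 in the BDL libraries and 0.861, 0.458 and 0.810 in the sham libraries. It crossed 1 in the same way as the type I ratio (BDL minus sham 0.89, exact permutation p = 0.1).

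Type VI gave 2 further ratios. The ratio of Col6a3 to Col6a1 was 0.514, 0.683 and 0.464 in the BDL+LIG libraries, 0.461, 0.359 and 0.428 in the BDL libraries and 0.327, 0.159 and 0.146 in the sham libraries. The 3 groups did not overlap (BDL minus sham 1.08 and BDL+LIG minus BDL 0.40, exact permutation p = 0.1 for each). The lowest BDL+LIG ratio (0.464) was only marginally above the highest BDL ratio (0.461). The ratio of Col6a2 to Col6a1 overlapped between all groups, with a BDL minus sham difference of 0.13 (exact permutation p = 0.6). On RefSeq GRCm38.p6, Col6a1 and Col6a2 are neighbours on chromosome 10, and Col3a1 and Col5a2 are neighbours on chromosome 1, where Col6a3 lies too. Whether gene position bears on these ratios was not tested. The ratio of Col14a1 to Col1a1, chosen after its values were seen, was 0.344, 0.343 and 0.301 in the BDL+LIG libraries, 0.186, 0.189 and 0.129 in the BDL libraries and 0.678, 2.13 and 2.05 in the sham libraries. Both ligated groups lay below sham, and BDL+LIG lay above BDL by 0.99 in mean log2 ratio (exact permutation p = 0.1).

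**Figure D4:**
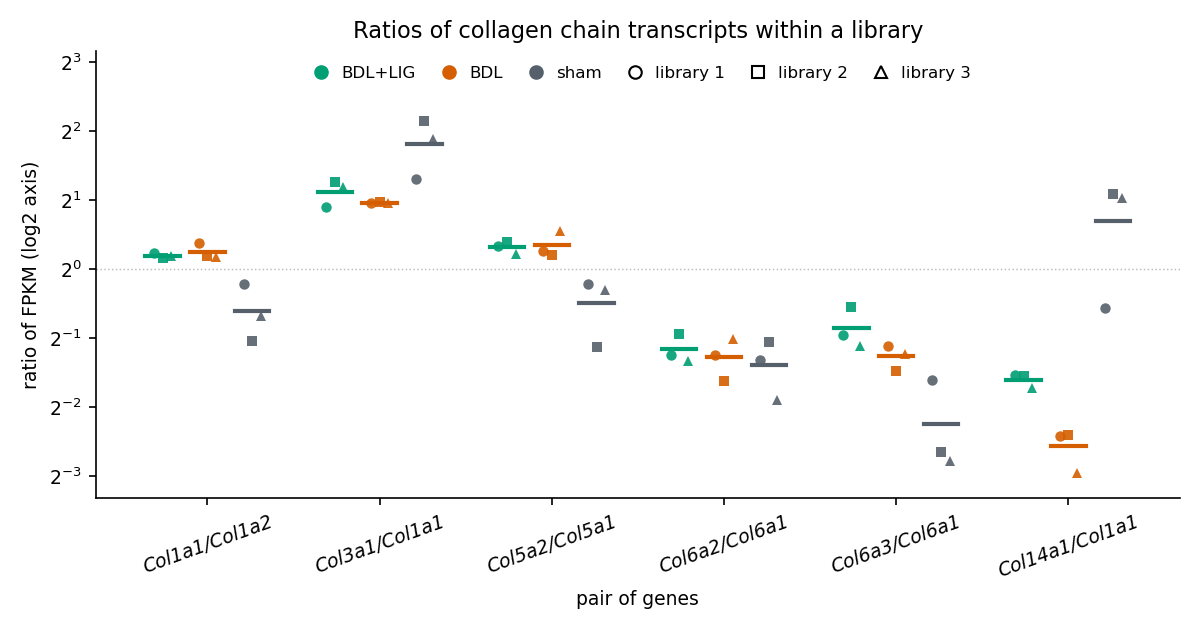
Ratio of FPKM of 2 genes within each library on a log2 axis for 6 gene pairs, with BDL+LIG, BDL and sham from left to right, 1 symbol per library and a line at the mean of the 3 ratios. Col1a1/Col1a2 and Col5a2/Col5a1 are above 1 in ligated libraries and below 1 in sham libraries, and Col14a1/Col1a1 separates all 3 groups.

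Across the 9 libraries, which share groups and the libraries that stood apart, the genes of the set followed each other closely. Pearson's r of log2(FPKM + 1) was 0.998 between Col1a2 and Col3a1, 0.996 between Col1a1 and Col1a2, and 0.993 both between Col5a1 and Col5a2 and between Col6a2 and Col6a3. The lowest was 0.745, between Col1a1 and Col14a1. Outside the set, the 6 genes most like its mean profile were Traf3 (r = 0.998), Mmp2 (0.996), Septin11, Kctd10, Zdhhc8 and Adam15 (0.994 each). Mmp2, a gelatinase that degrades denatured collagen, was at 2.21, 3.97 and 2.23 FPKM in the BDL+LIG libraries, 1.33, 1.88 and 1.70 FPKM in the BDL libraries and 0.773, 0.150 and 0.429 FPKM in the sham libraries. BDL+LIG library 2 was the highest and sham library 2 the lowest of its libraries.

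Genes that act with these collagens were counted by list, to be read against the 22.9% of all genes called higher in BDL against sham and the 9.98% in BDL+LIG against BDL livers. The lists were also chosen with earlier results of these data known, so their counts are descriptive. The 10 calls with LIG named in these lists were of Col4a1, Col4a2, Colgalt1, P4hb, Mia3, Pcolce2, Adamts2, Thbs1, Bgn and Itgb1. None of the 10 held without BDL+LIG library 2 (limma adjusted p between 0.0562 and 0.124), nor without BDL+LIG library 3 or any 1 BDL library. All 19 calls named under ligation held without sham library 1, where genes called rose from 3008 to 4668, so this is a lenient check. The ligation calls of Col5a3, Crtap, P4ha1 and Itgb1 ended without some other single library, as given below. Other processing choices also ended ligation calls among these genes, that of P4hb included. The limma adjusted p was then up to 0.231 for P4hb and 0.538 for Itgb1. Of 8 basement membrane collagen genes 4 were tested, and 2 of them rose in BDL against sham and 2 in BDL+LIG against BDL livers. These were Col4a1 and Col4a2, the common chains of the vascular and ductal basement membrane, in both comparisons. Col4a1 averaged 19.3 ± 2.88, 11.6 ± 0.970 and 1.83 ± 0.415 FPKM in BDL+LIG, BDL and sham livers (SD, n = 3 each), with changes of 2.17 ± 0.15 under ligation (limma adjusted p = 6.07e-06) and 0.68 ± 0.15 with LIG (limma adjusted p = 0.0238). Col4a2 changed by 1.27 ± 0.17 under ligation (limma adjusted p = 0.000402) and by 0.73 ± 0.17 with LIG (limma adjusted p = 0.028). Of 27 other fibrillar and interstitial collagen genes, 25 were in the table and 2 were expressed enough to be tested. Col5a3, a further type V chain, fell by 1.53 ± 0.51 in BDL against sham livers (limma adjusted p = 0.0448). It was at 0.822, 1.15 and 1.503 FPKM in the BDL libraries, against 16.8, 1.90 and 3.58 FPKM in the sham libraries. Sham library 1 carried most of this difference, and without it the change was -0.77 (limma adjusted p = 0.0114). Leaving out sham library 3 or any 1 ligated library ended the call (limma adjusted p between 0.0535 and 0.121).

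Of 23 genes for modification and folding in the endoplasmic reticulum 17 were tested, and 7 rose in BDL against sham livers, while 2 rose and 1 fell in BDL+LIG against BDL livers. The 2 of 17 are close to the 9.98% of all genes called higher with LIG. Serpinh1, the collagen chaperone HSP47, was at 9.75, 10.2 and 11.4 FPKM in the BDL libraries, against 3.98, 1.69 and 5.77 FPKM in the sham libraries (change 1.35 ± 0.32, limma adjusted p = 0.00972). With LIG its change was 0.56 ± 0.32 (limma adjusted p = 0.245). Colgalt1, which adds galactose to hydroxylysine, rose in both comparisons, by 1.11 ± 0.15 under ligation (limma adjusted p = 0.000456) and by 0.71 ± 0.15 with LIG (limma adjusted p = 0.0219). Crtap, part of a prolyl hydroxylation complex, rose by 0.76 ± 0.18 in BDL against sham livers (limma adjusted p = 0.0108, and 0.0518 without BDL library 3). P4ha1, a catalytic subunit of prolyl hydroxylase, rose by 0.66 ± 0.17 in BDL against sham livers (limma adjusted p = 0.0157, and up to 0.0776 without BDL library 2 or sham library 2). P4hb, the subunit that is also a general disulfide isomerase, rose by 0.69 ± 0.14 under ligation (limma adjusted p = 0.00497) and fell by 0.50 ± 0.14 in BDL+LIG against BDL livers (limma adjusted p = 0.0465). Mia3, an exit-site protein that helps load procollagen into carriers, rose with LIG by 0.76 ± 0.21 (limma adjusted p = 0.0448). The LIG calls of Colgalt1, P4hb and Mia3 each ended without any single BDL or BDL+LIG library (limma adjusted p up to 0.102, 0.1495 and 0.144).

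Of 10 genes for propeptide cleavage, 9 were in the table and 4 were tested, and 2 rose in each of these comparisons. Pcolce and Pcolce2, enhancers of the procollagen C-proteinase, rose under ligation by 1.15 ± 0.17 (limma adjusted p = 0.000768) and 0.88 ± 0.19 (limma adjusted p = 0.00678). With LIG, Pcolce2 rose by 0.95 ± 0.19 (limma adjusted p = 0.0187) and Adamts2, the procollagen N-proteinase, by 0.71 ± 0.19 (limma adjusted p = 0.04). Both LIG calls ended without BDL+LIG library 2, BDL+LIG library 3 or any single BDL library (limma adjusted p up to 0.0738 and 0.142). Of 5 other crosslinking genes only Tgm2, a transglutaminase, was expressed enough to be tested. Tgm2 averaged 165 ± 20.6 FPKM in BDL livers and 31.6 ± 1.18 FPKM in sham livers (change 2.34 ± 0.18, limma adjusted p = 1.10e-05). With LIG its change was -0.21 ± 0.18 (limma adjusted p = 0.438). Lox, the lysyl oxidase best known for fibrillar collagen, was too low to test, at 0.516, 0.756 and 0.624 FPKM in the BDL+LIG libraries, 0.358, 0.458 and 0.431 FPKM in the BDL libraries and 0.0892, 0.00572 and 0.0116 FPKM in the sham libraries. Its libraries kept the order BDL+LIG, BDL, sham without overlap. Loxl2 and the lysyl hydroxylase gene Plod2 were also untested, with means of 1.49, 0.750 and 0.163 FPKM and of 0.289, 0.178 and 0.018 FPKM in BDL+LIG, BDL and sham livers.

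Of 18 genes for matrix proteins that bind fibrils 10 were tested, and 8 rose in BDL against sham and 2 in BDL+LIG against BDL livers. Sparc, a collagen-binding matricellular protein, was at 31.1, 34.8 and 37.5 FPKM in the BDL libraries, against 9.42, 5.69 and 10.4 FPKM in the sham libraries (change 1.93 ± 0.25, limma adjusted p = 0.000299). Lum, a proteoglycan that limits fibril thickness, rose by 1.51 ± 0.23 and Fn1, fibronectin, by 0.79 ± 0.14 (limma adjusted p = 0.000957 and 0.00218). Thbs1, thrombospondin 1, rose by 1.11 ± 0.14 under ligation (limma adjusted p = 0.000234) and by 0.64 ± 0.14 with LIG (limma adjusted p = 0.0219). Bgn, biglycan, rose by 1.05 ± 0.28 with LIG (limma adjusted p = 0.0394). The LIG calls of Thbs1 and Bgn, and that of Itgb1 given next, ended without BDL+LIG library 2, BDL+LIG library 3 or any single BDL library. Their limma adjusted p was then up to 0.0931, 0.125 and 0.123. Of 13 collagen receptor and uptake genes 5 were tested, and 4 rose under ligation and 1 with LIG. Ddr1, a receptor tyrosine kinase for collagen, rose by 1.39 ± 0.13 (limma adjusted p = 3.92e-05), and Itgb1, the shared subunit of collagen-binding integrins, by 0.41 ± 0.11 under ligation (limma adjusted p = 0.015, and up to 0.0689 without BDL library 2, BDL library 3 or sham library 2) and by 0.44 ± 0.11 with LIG (limma adjusted p = 0.0289). Antxr2, a receptor that takes up type VI collagen, rose by 1.10 ± 0.11 and Lair1, an inhibitory collagen receptor of leukocytes, by 0.95 ± 0.17 under ligation (limma adjusted p = 4.78e-05 and 0.00198). The median changes of these lists in BDL against sham livers ran between 0.42 for the endoplasmic reticulum genes and 1.02 for the fibril-binding genes among lists with at least 5 genes tested, beside 0.16 over all genes.

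Markers of several cell types differed between the same groups as the collagens. The hepatocyte list, with Alb and Ttr, summed to 36901 to 45476 FPKM in BDL+LIG libraries, 31241 to 37991 FPKM in BDL libraries and 53158 to 61951 FPKM in sham libraries, in keeping with the liver label. It ran opposite to the collagens, with every ligated library below every sham library. Of its 7 tested genes 2 were called lower in BDL against sham livers, beside 6.76% of all genes tested. Without sham library 1, 4 of the 7 were called lower, where 4668 of 10142 genes were called, 3731 of them higher and the rest lower. Cholangiocyte markers summed to 219 to 461 FPKM in BDL+LIG libraries, 409 to 609 FPKM in BDL libraries and 20.5 to 36.7 FPKM in sham libraries, with 7 of 7 tested genes higher in BDL against sham livers. Portal fibroblast markers summed to 58.2 to 84.4, 58.3 to 75.8 and 15.8 to 22.3 FPKM in BDL+LIG, BDL and sham libraries, and leukocyte markers to 304 to 621, 273 to 378 and 57.4 to 79.8 FPKM. Of the tested genes 3 of 5 portal fibroblast and 6 of 6 leukocyte markers were higher in BDL against sham livers. These counts, and the 7 of 7 cholangiocyte markers, stand beside 22.9% of all genes called higher. These lists separated the ligated libraries from the sham libraries, as most collagens did. In ligated livers the cholangiocyte, portal fibroblast and leukocyte sums each came mostly from a single gene. Spp1 averaged 314, 472 and 21.5 FPKM of the cholangiocyte sums in BDL+LIG, BDL and sham livers. Gas6 averaged 50.4, 54.6 and 13.9 FPKM of the portal fibroblast sums, and Lyz2 306, 223 and 32.2 FPKM of the leukocyte sums. Alb likewise averaged 26727, 18148 and 28773 FPKM of the hepatocyte sums. In that list only Hnf4a had a higher mean in BDL+LIG than in sham livers (144 and 117 FPKM). Clec3b and Gli1 of the portal fibroblast list, too low to test, had lower means in BDL than in sham livers.

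Stellate cell and endothelial markers were higher in the BDL+LIG libraries than in the others. Stellate markers summed to 69.6 to 113 FPKM in BDL+LIG libraries, 36.0 to 39.8 FPKM in BDL libraries and 17.5 to 50.4 FPKM in sham libraries, and endothelial markers to 46.2 to 66.8, 26.9 to 29.4 and 20.05 to 23.6 FPKM. In BDL+LIG against BDL livers 7 of 11 tested stellate markers and 6 of 6 tested endothelial markers were higher, beside 9.98% of all genes tested. Clec4g averaged 26.9, 16.7 and 13.8 FPKM of the endothelial sums in BDL+LIG, BDL and sham livers. Ecm1 averaged 37.7, 16.3 and 22.0 FPKM of the stellate sums. BDL+LIG library 2 had the highest sum of both lists. Without that library 1 of the 11 stellate and 3 of the 6 endothelial markers were called, beside 201 of 10142 genes called higher. In BDL against sham livers 5 of the 11 stellate markers were higher, beside 22.9% of all genes. Without sham library 1 it was 4 of the 11, beside 3731 of 10142 genes. Acta2 encodes an actin that myofibroblasts gain, and its changes were 0.66 ± 0.40 (BDL against sham, limma adjusted p = 0.25) and -0.053 ± 0.40 (BDL+LIG against BDL, limma adjusted p = 0.938), neither called with all libraries. Without sham library 1 the first change was 1.11 and was called (limma adjusted p = 0.0212). Genes called in all then rose from 3008 to 4668. The second change turned its sign under some alternatives. Myofibroblast markers summed to 12.1 to 25.2, 9.76 to 16.6 and 7.85 to 16.9 FPKM in BDL+LIG, BDL and sham libraries. Smooth muscle and mesothelial lists stayed under 5 FPKM in sum in every library, skeletal muscle under 2 FPKM, and the exocrine pancreas list summed to between 4.47 and 23.4 FPKM, with 0 to 1 gene of each tested. Mitochondrial transcripts made up 5.86 to 8.58%, 8.30 to 9.76% and 10.6 to 16.8% of all FPKM in BDL+LIG, BDL and sham libraries. What part these cell types or RNA quality had in the collagen differences was not tested.

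**Figure D5:**
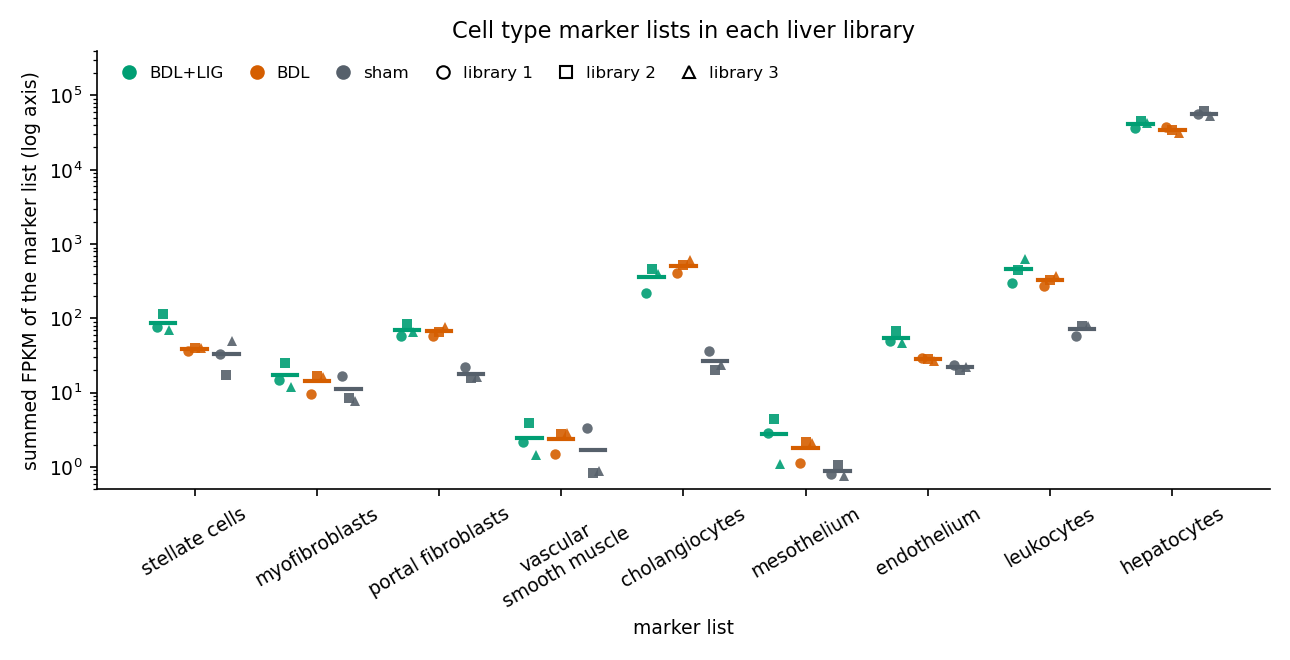
Summed FPKM on a log axis of 9 cell type marker lists in each library, with BDL+LIG, BDL and sham from left to right, 1 symbol per library and a line at the group mean. Cholangiocyte, portal fibroblast and leukocyte lists separate both ligated groups from sham, and the stellate and endothelial lists are highest in BDL+LIG libraries. By group mean, Spp1, Gas6 and Lyz2 make up most of the cholangiocyte, portal fibroblast and leukocyte sums in the ligated groups.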

How the data were processed

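Liver RNA of 9 libraries, 3 per group, was measured by RNA-seq. Per the labels' protocols, RNA was isolated with TRIzol, measured on a NanoDrop and made into libraries with a VAHTS Universal V6 kit. Per the submitters' processing notes, fastp, HISAT2 2.1.0, DESeq2 and build GRCm39 were used. The sources used here name no annotation, strand setting or counting program. The authors deposited FPKM, 1 column per library, which were used as given and tied to samples by title. No coordinates of the table's build are printed, and the promoter sequences come from RefSeq on an earlier build.

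Steps between low FPKM values show the size of 1 fragment, from which whole fragments were recovered for 19449 of 19449 genes above 0 in at least 2 libraries (100%, within 0.02 fragments). They gave depth, the fragment counts and the chi-square between libraries of a group, and served the voom alternative. The step sizes also gave the relative gene lengths. Sampling error covers counting only.

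The main test was limma 3.58.1 (trend) in R 4.3.3 on log2(FPKM + 1). A single fit of all 9 libraries covered 10142 genes, those reaching 1 FPKM in 3 or more libraries, with Benjamini-Hochberg adjustment over them and a threshold of 0.05. The script was tested on simulated data. Within-library ratios were compared by exact two-sided permutation tests in SciPy 1.17.1. The main test did not pair libraries by replicate number.

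All 10 genes are named. From each pathway list the text takes the genes with the smallest p (up to 4 in BDL against sham and up to 2 in BDL+LIG against BDL; Col27a1, Col15a1, Col18a1, Bmp1 and Itga1, also taken, were not called in these and stand in the counts only), with Lox, Loxl2, Serpinh1, P4ha1, Plod2, Tgm2, Sparc and Acta2. The 6 most similar genes were taken by Pearson correlation with the mean of the scaled values of the set, leaving out predicted genes and pseudogenes. The members and lists were chosen with earlier results of these data known. Alternatives covered pseudocounts of 0.1 and 0.5, filters, scalings, a length trend removed (loess span 0.4), voom, robust variance, groups fitted alone, a replicate block and each library left out.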

Additional observations from a re-analysis of the deposited data

How the results depend on the processing

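Genes on the low side limit these results: in sham livers most of the 10 genes lie near or under 1 FPKM, and added pseudocounts and filters weigh on them. Scaling moved the median of all genes: by median-of-ratios it was -0.06, -0.03 and -0.09 in BDL against sham, BDL+LIG against BDL and BDL+LIG against sham, against 0.16, 0.18 and 0.34 as reported, and higher genes then made up 49.9, 43.7 and 43.7% of calls in place of 77.2, 84.8 and 83.0% (rescaled to TPM 82.7, 94.9 and 91.3%; with the length trend removed 51.1, 47.8 and 48.8%). The 10 genes are longer than 52.8 to 96.5% of tested genes. None of the 10 changed direction under any alternative in any comparison. The cause of the shifts below was not tested.

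In BDL against sham, genes called numbered 1838 at a mean of at least 5 FPKM, 951 with a log2 change of at least 1, 4996 without both sham library 1 and BDL+LIG library 2 (chosen after seeing the data), and 1894 to 4668 with 1 library left out, against 3008. Of the 10 genes only 3 were tested at a mean of at least 5 FPKM, and all 3 were called, as were 3 of 10 with a log2 change of at least 1, and 6 to 9 with 1 library left out. In BDL+LIG against sham the genes called numbered 2765 and 1704 under those filters and 4505 to 6922 with 1 library left out, against 5335, and 3 of the 3 genes tested at a mean of at least 5 FPKM.

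In BDL+LIG against BDL the genes called varied most. Against 1194 they numbered 623 with no filter, 575 at a mean of at least 5 FPKM, 630 with median-of-ratios scaling, 1926 rescaled to TPM, 502 with the length trend removed, 3433 with the 2 groups fitted alone, 2595 without both libraries and 109 with a log2 change of at least 1. With 1 library left out they ran between 0 and 3144. Limma called 0 without BDL library 2, where 2317 had an unadjusted p under 0.05, 40 without BDL library 1, 54 without BDL library 3, 289 without BDL+LIG library 2 and 3144 without sham library 1. With the replicate number as a block, 742 genes and 0 of the 10 were called. Same-numbered libraries correlated between -0.126 and 0.285 in their deviations, and the main test did not pair them. Whether they shared a batch cannot be told from this. Of the 10 genes, against 2, limma called 1 at pseudocounts of 0.1 and 0.5, 0 with no filter, 0 of the 3 tested at a mean of at least 5 FPKM, 0 with median-of-ratios scaling, 0 with the length trend removed, 1 by voom, 5 with the 2 groups alone, 1 with a log2 change of at least 1, 3 rescaled to TPM, 3 without both libraries, and 0 to 6 with 1 library left out (6 without sham library 1). Col14a1 passed in 11 of 20 alternatives (adjusted p 0.00785 to 0.104) and Col6a3 in 6 of 20 (0.0131 to 0.177).

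Signs turned for small differences only. Acta2 in BDL+LIG against BDL was 0.070 rescaled to TPM and -0.31 to 0.17 with 1 library left out, P4ha1 -0.021 with the length trend removed, and Tgm2 -0.35 to 0.0064 with 1 library left out. With 1 library left out, the BDL+LIG minus BDL log2 ratio ran between -0.085 and 0.020 for Col1a1/Col1a2, -0.089 and 0.080 for Col5a2/Col5a1, and -0.045 and 0.26 for Col6a2/Col6a1. For Col6a2/Col6a1 in BDL minus sham it ran between -0.10 and 0.31, and was -0.034 with 0.1 added to both FPKM values.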
